A study of Arabidopsis thaliana with 6 samples.

Results

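The chloroplast genome of Arabidopsis thaliana carries genes for core subunits of the photosynthetic machinery: photosystem I (psa genes), photosystem II (psb), the cytochrome b6f complex (pet), the ATP synthase (atp) and the large subunit of Rubisco (rbcL). These genes were compared between wild-type and pif1-2 seedlings grown in the dark. The members were the probe sets whose single gene symbol is psa, psb, pet or atp followed by a capital letter, or rbcL, and whose gene has a plastid locus tag; mitochondrial atp genes were left out. The rule found 33 genes among 13356 that a probe set of 1 gene name measures, with 33 of the 22810 probe sets. That is 1 for each of the 33 plastid genes of the RefSeq gene table that it describes: 5 for photosystem I, 15 for photosystem II, 6 for cytochrome b6f, 6 for the ATP synthase and 1 for Rubisco. All 33 passed the filter on low signals.

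Photosystem II takes electrons from water, the cytochrome b6f complex passes them on and pumps protons, photosystem I lifts them again with light energy, and the ATP synthase uses the proton gradient; Rubisco fixes carbon dioxide. Each complex is a mosaic of plastid-encoded and nucleus-encoded subunits. Most plastid photosynthesis genes are transcribed by the bacterial-type plastid RNA polymerase with nuclear sigma factors, often as long transcripts that cover several genes and are then cut and trimmed. In darkness seedlings form etioplasts, which lack assembled photosystems, and the transcription factor PIF1, a basic helix-loop-helix protein that binds phytochrome, is known to restrain chlorophyll synthesis there.

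Wild type (written "Wt, col-o" in the labels) and pif1-2, the single insertion line Salk_072677, had 3 Affymetrix ATH1 arrays each. Both groups were whole seedlings from seeds that had 4 days of cold, 1 hour of light and 4 days of darkness at 21 °C on MS medium, with no other treatment. Groups and replicates follow the sample titles, since another label field counts the allele number upwards from sample to sample. According to the labels the mutant has very little PIF1 mRNA, and its etiolated seedlings are about 2 mm shorter than wild type.

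A signal below is a MAS5 intensity of 1 probe set, rescaled per array, and a log2 fold change is pif1-2 minus wild type of log2(signal + 16), from a limma fit over all 17695 probe sets that passed the filter. Labelling followed the standard Affymetrix protocol, in which cDNA synthesis starts at poly(A) tails; only a small part of plastid transcripts carries them, and whether these signals follow total transcript levels was not tested. In RNA of whole seedlings, fewer plastid-rich cells, fewer plastids and less RNA per plastid cannot be told apart. The median deposited signal was 183 to 198 on the 6 arrays. pif1-2 replicate 3 stood apart from the other arrays, with a score of 47.9 on the first principal component against -13.2 to -5.23, and an actin 3-prime to 5-prime ratio of 8.07 against 3.53 to 5.17. The 25S rRNA signal of pif1-2 replicate 2 was 545.5 against 5877 to 13936 elsewhere. No probe set was named for PIF1 (0 for its locus AT2G20180 and 0 for At2g20810, the locus in the series title), so the genotype rests on the labels. Of the marker lists, the 1 labelled etiolated seedlings and seed reserve use had 3 of 6 genes named (PORB, ICL and HPR). Their summed signals were 16829 to 23560 in wild type and 19312 to 24108 in pif1-2. Whether HPR marks that state was not tested. The sum joins genes that lay on both sides of 0. HPR, hydroxypyruvate reductase, was at a log2 fold change of 0.63 (limma adjusted p = 0.279), ICL, isocitrate lyase, at 0.42 (adjusted p = 0.660) and PORB, a protochlorophyllide oxidoreductase, at -0.48 (adjusted p = 0.637). Unadjusted, HPR and PORB were under 0.05 and no marker passed after adjustment. Their part in the results below was not tested. The 3 named of 8 root markers summed to 431 to 891 and 417 to 858. Light-grown, epidermal, guard cell, vascular and dry seed markers, and the sigma factors SIG1 to SIG6, had 0 named probe sets and were not analysed here. No named marker was at 0.

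None of the 33 plastid photosynthesis transcripts passed the threshold, a limma p of 0.05 after Benjamini-Hochberg adjustment across the table, where 0.0113% of all probe sets passed (2 of 17695, both lower in pif1-2). The adjusted p-values of the 33 ran from 0.152 to 0.999; 1 member, psbA, passed when wild type replicate 1 was left out. Their log2 fold changes ran from -0.98 to 0.13 with a median of -0.21, and 25 of 33 (75.8%) were negative, against a median of 0.0010 and 49.9% negative over all probe sets tested. With p unadjusted and under 0.05, 9 of 33 were lower in pif1-2 and 0 were higher, where 4.36% of all probe sets were lower and 3.31% higher. The 9 were psbA, psbB, psbD, psbE and psbN, petG and petN, psaC, and rbcL. The highest pif1-2 array lay below the lowest wild-type array for 10 members, the same 9 without psbA and with psbZ and petA, and the reverse held for 0; over all probe sets these shares were 6.58% and 6.49%. These transcripts come from 1 small genome, share long precursor transcripts and were measured on the same 6 arrays, so they do not count as separate observations of the genotype. For 17 of the 33 the 95% interval of the log2 fold change lay between -0.50 and 0.50.

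**Figure D1:**
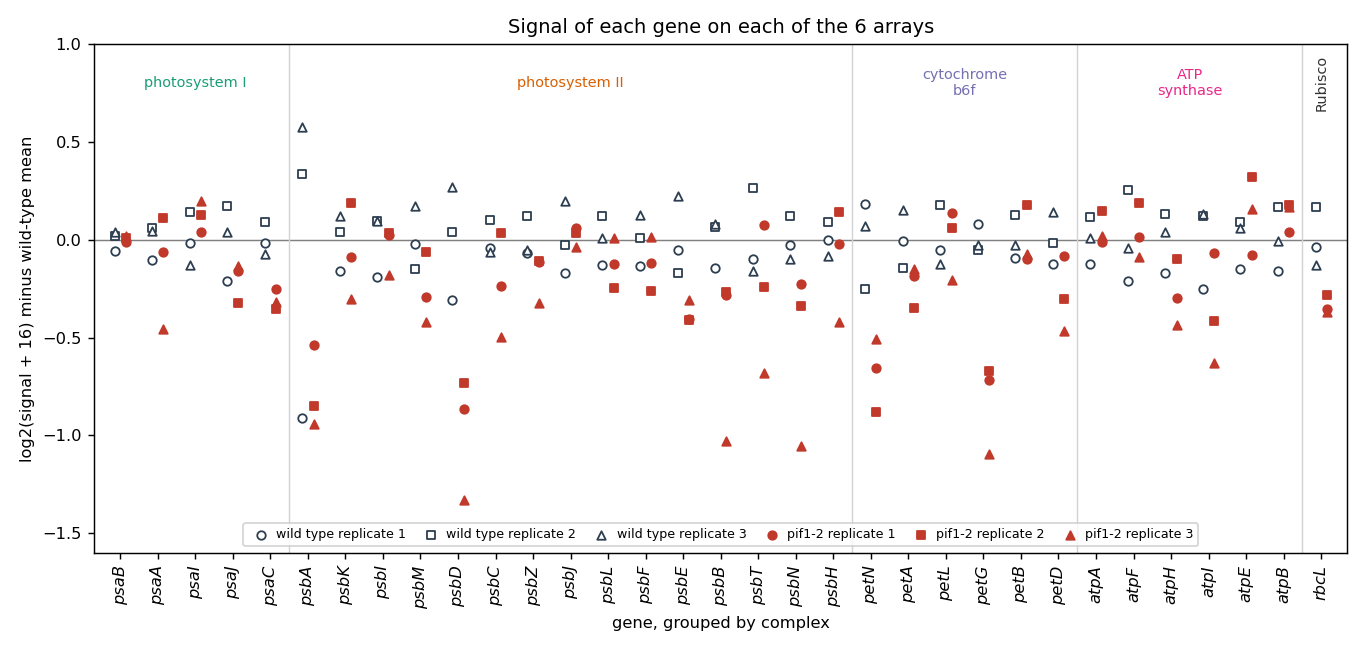
The vertical axis gives log2(signal + 16) of each array minus the mean of the 3 wild-type arrays, and the horizontal axis the 33 genes by complex; open symbols are wild type, filled symbols pif1-2, and the shape gives the replicate number. Filled symbols lie below all open ones for 10 genes, among them psbD, petG and petN, while the ATP synthase genes overlap between the groups.

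Photosystem II transcripts included psbD, at the lowest fold change of the 33; petG was lower without wild type replicate 3 and psbA without wild type replicate 1. Of 15 members 14 were negative, with a median of -0.23 and a range from -0.98 to 0.019; the median ran from -0.30 without pif1-2 replicate 2 to -0.15 without wild type replicate 2. Of the 15, 5 were lower at an unadjusted p under 0.05 and 0 higher, where 4.36% of all probe sets were lower and 3.31% higher. psbD encodes the D2 protein, which with D1 holds the cofactors of charge separation. Its signals were 7278, 9238 and 10849 in wild type and 4937, 5415 and 3572 in pif1-2. No pif1-2 array reached the lowest wild-type array, the mean in pif1-2 was 0.509 of that in wild type, and the log2 fold change was -0.98 (95% interval -1.38 to -0.57, limma adjusted p = 0.152).

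psbA encodes D1, the subunit that is damaged by light and replaced throughout the life of a leaf. Its signals were 3466, 8264 and 9746 in wild type and 4504, 3620 and 3391 in pif1-2. Wild type replicate 1 lay among the pif1-2 arrays, at less than the level of 2 of them, so the groups overlapped. The log2 fold change was -0.78 (95% interval -1.43 to -0.12, SE 0.30, the largest SE of the 33; limma adjusted p = 0.637). Without wild type replicate 1 it was -1.23 and passed the threshold (adjusted p = 0.0235), and without wild type replicate 3 it was -0.49 (adjusted p = 0.972).

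psbB encodes CP47, a chlorophyll-binding inner antenna of photosystem II. Signals were 3856, 4454 and 4507 in wild type and 3496, 3540 and 2078 in pif1-2, with pif1-2 replicate 3 far below the other 5 arrays. The log2 fold change was -0.53 (95% interval -0.95 to -0.11, limma adjusted p = 0.592) and -0.28 when that array was left out. psbN, which is read from the opposite strand inside the psbB gene cluster and encodes a factor needed for photosystem II assembly rather than a subunit, had 1199, 1331 and 1140.2 in wild type and 1041, 961.6 and 580.6 in pif1-2, and a log2 fold change of -0.54 (95% interval -0.98 to -0.099, adjusted p = 0.606) (-0.28 when pif1-2 replicate 3 was left out). For both genes the groups did not overlap.

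psbE encodes the alpha subunit of cytochrome b559, which sits beside the reaction centre. Its signals were 4252, 3912 and 5155 in wild type and 3331, 3311 and 3564 in pif1-2. The pif1-2 arrays lay close together and below those of wild type, with a log2 fold change of -0.37 (95% interval -0.67 to -0.075, limma adjusted p = 0.592). psbF, which encodes the beta subunit of the same cytochrome, was at -0.12 with overlapping groups. psbJ, a small subunit needed for assembly, was the only member of the complex above 0. Its signals were 1163, 1282 and 1503 in wild type and 1365, 1343 and 1273 in pif1-2, so that the pif1-2 arrays lay inside the wild-type range. Its log2 fold change was 0.019 (95% interval -0.29 to 0.33), and its sign turned without wild type replicate 1 (-0.065) or pif1-2 replicate 1 (-0.0014).

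The other 8 photosystem II members were psbC (the inner antenna CP43), psbH, psbI, psbK, psbL, psbM, psbT and psbZ, all small subunits but psbC. Their log2 fold changes ran from -0.28 for psbT to -0.042 for psbI, with adjusted p-values from 0.703 to 0.970. Without pif1-2 replicate 3 psbT was at -0.082, psbC at -0.10 rather than -0.23, and psbZ at -0.11 rather than -0.18. psbT also moved to -0.46 without pif1-2 replicate 1 and to -0.15 without wild type replicate 2, and psbC to -0.37 without pif1-2 replicate 2. psbZ was the only 1 of the 8 whose groups did not overlap, at 13537, 15412 and 13655 in wild type and 13094, 13143 and 11311 in pif1-2. The mean of psbC in pif1-2 was 0.859 of that in wild type.

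Cytochrome b6f transcripts differed among themselves more than those of photosystem I or the ATP synthase, from -0.83 to 0.0016 on the log2 scale around a median of -0.26, and 5 of 6 were negative. The 2 lowest belong to very small subunits of a single membrane helix each. petG had signals of 1297, 1184 and 1204 in wild type and 739.4, 763.5 and 566.5 in pif1-2. The pif1-2 arrays lay well below the wild-type arrays, which were close together, and the mean was 0.562 of that in wild type. The log2 fold change was -0.83 (95% interval -1.16 to -0.50, limma adjusted p = 0.152). petN had 1395, 1027 and 1289 in wild type and 771.8, 658.8 and 857.6 in pif1-2, again without overlap, with a log2 fold change of -0.68 (95% interval -1.04 to -0.33, adjusted p = 0.312).

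The large subunits of the cytochrome complex lay nearer to wild type. petB, which encodes cytochrome b6, had 15530.4, 18093 and 16282 in wild type and 15498, 18746 and 15801 in pif1-2, and the groups overlapped throughout. Its log2 fold change was 0.0016 (95% interval -0.27 to 0.28), and its sign turned in 5 of 18 alternatives. petA, which encodes cytochrome f, was at -0.23 (adjusted p = 0.728) with no overlap between groups, at 4831, 4402 and 5401 in wild type and 4278, 3806 and 4386 in pif1-2. petD, which encodes subunit IV, was at -0.28 (adjusted p = 0.726) and petL, another small subunit, at -0.0017.

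The photosystem I transcripts spanned -0.31 to 0.12 with a median of -0.14, which was -0.00050 without pif1-2 replicate 3. psaC encodes the iron-sulfur protein that hands electrons to ferredoxin. Its signals were 5742, 6171 and 5522 in wild type and 4876, 4538 and 4646 in pif1-2. The groups did not overlap, and the log2 fold change was -0.31 (95% interval -0.57 to -0.048, limma adjusted p = 0.636). psaI, a small subunit, had the highest fold change of the complex, at 9851, 10995 and 9117 in wild type and 10217, 10884 and 11405 in pif1-2. Its groups overlapped, and the log2 fold change was 0.12 (95% interval -0.15 to 0.39). The reaction centre proteins are encoded by psaA and psaB. psaB was at 0.0060 (95% interval -0.23 to 0.24), but -0.15 with quantile normalization, and psaA was at -0.14 (95% interval -0.46 to 0.19), but 0.024 without pif1-2 replicate 3. psaJ, another small subunit, was at -0.21, but -0.31 when wild type replicate 1 was left out and -0.12 when replicate 2 of that group was.

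Of the 6 ATP synthase transcripts 0 had an unadjusted p under 0.05 in either direction. Over all probe sets 4.36% were lower and 3.31% higher at that threshold. The median log2 fold change of the 6 was 0.046, which turned to -0.023 with quantile normalization and -0.0043 with array weights. It was -0.038 when wild type replicate 1 was left out and -0.016 when pif1-2 replicate 2 was. The catalytic head is made from alpha subunits (atpA, 0.053) and beta subunits (atpB, 0.13), and atpE encodes the epsilon subunit of the stalk. atpE, atpB and psaI had the highest fold changes of the 33, and their order was not stable: psaI was above atpE with quantile normalization (0.075 and 0.0096), with array weights, and without wild type replicate 1, wild type replicate 2 or pif1-2 replicate 2. The signals of atpE were 14700.4, 17351 and 16996 in wild type and 15429.8, 20349 and 18152 in pif1-2, and the groups overlapped. The log2 fold change was 0.13 (95% interval -0.16 to 0.43, limma adjusted p = 0.862). The genes of the membrane part lay on both sides of 0. atpI, which encodes subunit a, had 828.9, 1078 and 1085 in wild type and 942.6, 738.2 and 632.7 in pif1-2, overlapping at 1 array of each group, with a log2 fold change of -0.37 (95% interval -0.76 to 0.015, adjusted p = 0.670), or -0.24 without pif1-2 replicate 3. atpH, which encodes the ring subunit c, was at -0.28 (adjusted p = 0.671) and atpF, which encodes a peripheral stalk subunit, at 0.038.

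rbcL, the large subunit of Rubisco, had signals of 5390, 6197 and 5053 in wild type and 4317, 4537 and 4269 in pif1-2. The groups did not overlap, and the mean in pif1-2 was 0.789 of that in wild type. The log2 fold change was -0.34 (95% interval -0.61 to -0.060, limma adjusted p = 0.614). accD, the plastid gene that follows rbcL along the genome and encodes a subunit of acetyl-CoA carboxylase, was at -0.30 (adjusted p = 0.656), with 7704, 8921 and 7644 in wild type and 6586, 7486 and 5737 in pif1-2 and no overlap between groups.

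**Figure D2:**
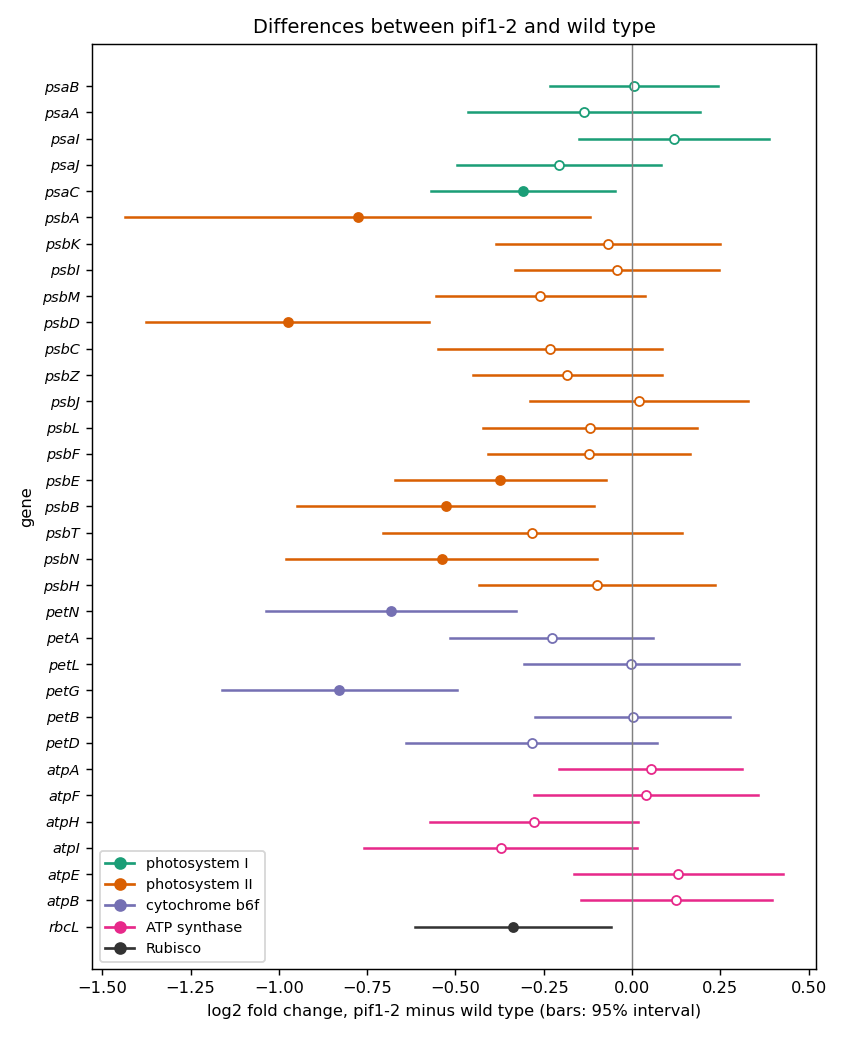
Points give the log2 fold change of each of the 33 genes, pif1-2 minus wild type, and bars its 95% interval from the limma fit; filled points have an unadjusted p under 0.05. The 9 filled points are all negative, and the intervals of all 6 ATP synthase genes include 0.

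The 6 arrays did not keep the same order for every transcript of the 33. The median over the members of log2 signal minus the wild-type mean was -0.10, 0.097 and 0.037 on the wild-type arrays and -0.11, -0.11 and -0.32 on the pif1-2 arrays. Wild type replicate 1 therefore lay close to pif1-2 replicates 1 and 2 on this measure, and pif1-2 replicate 3 lay lowest. Below the wild-type mean were 31, 7 and 13 of the 33 members on wild type replicates 1, 2 and 3. On the pif1-2 arrays 26, 19 and 26 were. Of the 33 members 17 had their lowest signal on pif1-2 replicate 3, 7 on pif1-2 replicate 2, 7 on wild type replicate 1, and 1 each on pif1-2 replicate 1 and wild type replicate 3. The highest signal was on wild type replicate 2 for 12, on wild type replicate 3 for 11 and on pif1-2 replicate 2 for 7. Without pif1-2 replicate 3, the array with the high actin ratio, the median over the members was -0.18, 21 of 33 were negative and 6 were lower at an unadjusted p under 0.05. Without wild type replicate 2 the median was -0.12, with 23 negative and 4 lower. In the same fits 4.37% and 2.41% of all probe sets were lower at that threshold, against 4.36% with all arrays. In both cases 0 were higher at an unadjusted p under 0.05.

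**Figure D3:**
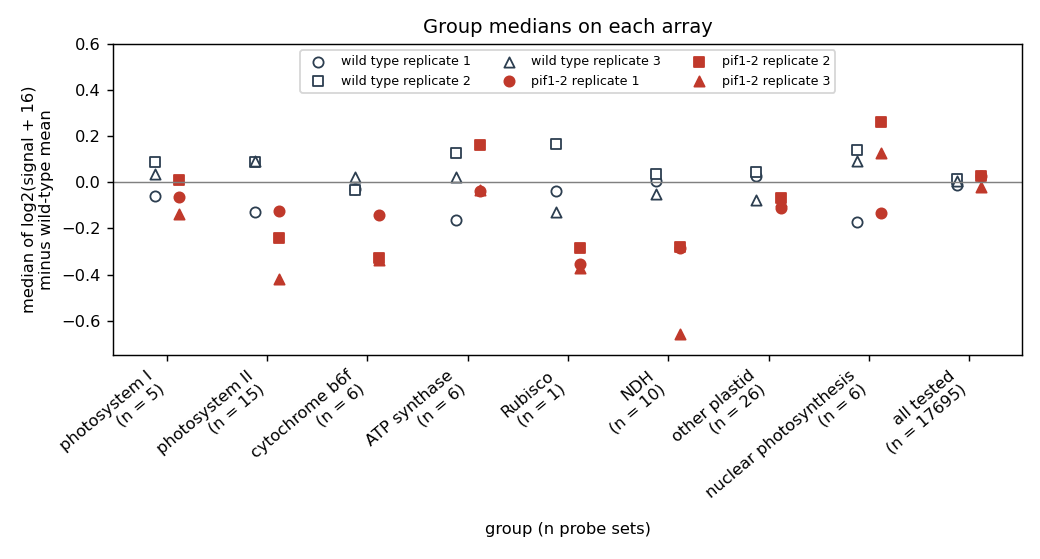
The vertical axis gives, for each array, the median over a group's probe sets of log2(signal + 16) minus the wild-type mean; open symbols are wild type and filled symbols pif1-2. For photosystem II the pif1-2 medians run from -0.12 to -0.42 and for the ATP synthase from -0.040 to 0.16, and over all probe sets tested from -0.023 to 0.028. The wild-type medians run from -0.13 to 0.094 for photosystem II and from -0.16 to 0.13 for the ATP synthase, lowest on replicate 1.

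Neighbouring genes on the plastid genome, many of them cut from a shared precursor transcript, were compared within 9 runs, with too few arrays for any pair to pass the test. The 19 adjacent pairs were compared by the log2 ratio of the 2 signals on each array. An exact two-sided permutation test of 3 arrays against 3 cannot go below p = 0.1, and after Benjamini-Hochberg adjustment over the 19 pairs the lowest was 0.38. The ratios did not overlap between groups for 5 of the 19 pairs, among them petL to petG and petG to psaJ, which share petG. Among single signals of all probe sets 13.1% did not overlap, in either direction, but no such share was computed for ratios. The median absolute difference between the log2 fold changes of neighbours was 0.25. psbD and psbC overlap in sequence and are transcribed together, and psbD was at -0.98 beside -0.23 for psbC and -0.18 for psbZ. The psbD to psbC log2 ratio, set to a wild-type mean of 0, was -0.26, -0.066 and 0.33 in wild type and -0.63, -0.77 and -0.83 in pif1-2, without overlap (difference -0.74, exact p = 0.1). The ratio of petL to petG was -0.13, 0.23 and -0.098 in wild type and 0.86, 0.73 and 0.89 in pif1-2 (difference 0.83, exact p = 0.1), with petL at -0.0017 and petG at -0.83. petG to psaJ also did not overlap (difference -0.62, exact p = 0.1). In the psbB cluster, which is read as psbB, psbT, psbH, petB and petD, the log2 fold changes were -0.53, -0.28, -0.10, 0.0016 and -0.28. The ratio of psbN, read from the other strand there, to psbH did not overlap (difference -0.44, exact p = 0.1). In the cluster read from atpI through atpH and atpF to atpA they were -0.37, -0.28, 0.038 and 0.053, and the ratio of atpH to atpF did not overlap between groups (difference -0.32, exact p = 0.1). psbE, psbF, psbL and psbJ stood at -0.37, -0.12, -0.12 and 0.019. By contrast, the fold changes of atpB and atpE (0.13 and 0.13) differed by 0.0055, and those of psbK and psbI by 0.026. petN and psbM are neighbours on opposite strands, at -0.68 and -0.26, with ratios that overlapped between groups (exact p = 0.3).

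**Figure D4:**
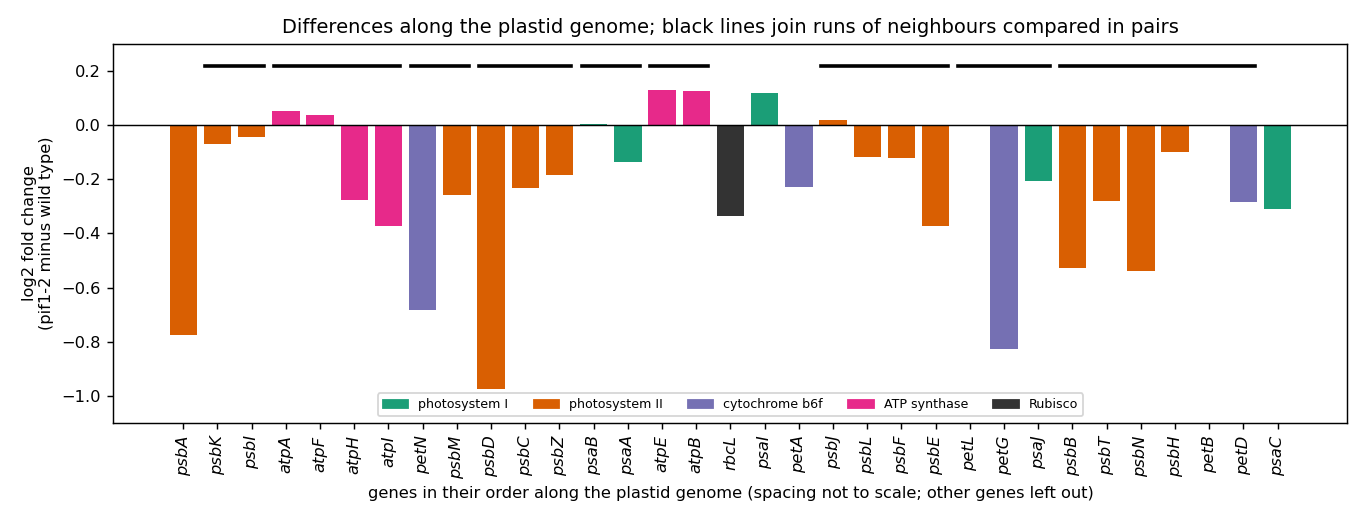
Bars give the log2 fold change of the 33 genes in their order along the plastid genome, coloured by complex, and black lines mark the 9 runs of neighbours. The lowest bars, psbD at -0.98 and petG at -0.83, stand beside genes of the same run at -0.23 and -0.0017; psbN and psbM lie on the strand opposite to the genes beside them.

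Other plastid-encoded genes were measured on the same arrays. Of the ndh genes, which encode the chlororespiratory NDH complex, 10 had a probe set with 1 gene name. All 10 were negative, with a median of -0.44. Of the 10, 5 were lower at an unadjusted p under 0.05, where 4.36% of all probe sets were. The 26 plastid genes for the RNA polymerase, ribosomal proteins and other functions had a median of -0.062, with 15 negative. Of the 26, unadjusted p-values under 0.05 went with 3 lower (rps15, rps16 and ycf4) and 2 higher (rpl36 and rps19) values in pif1-2. Over all probe sets 4.36% were lower and 3.31% higher at that threshold. None of these 36 plastid genes passed with limma over all probe sets. ycf4, which lies between psaI and petA and encodes an assembly factor of photosystem I, was at -0.51 (SE 0.12, limma adjusted p = 0.312), with 10992, 11018 and 9701 in wild type and 7924, 7294 and 7029 in pif1-2. ycf3, the other such factor, was at -0.32 (adjusted p = 0.718). rpoA, rpoB, rpoC1 and rpoC2, the core subunits of the plastid RNA polymerase, were at 0.22, -0.035, 0.019 and -0.12. The groups overlapped for the first 3 and not for rpoC2, whose highest pif1-2 signal was 703.4 and lowest wild-type signal 703.9 (adjusted p = 0.886). When each array was shifted so that these 36 genes had equal medians, the median of the 33 photosynthesis members was -0.13. Whether the groups of plastid genes differ from each other was not tested.

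Among the nucleus-encoded partners of the same complexes, 6 probe sets had a gene name. Those of PSAE-1 and PSAN of photosystem I, PSBW and PSBY of photosystem II, and ATPC1 and ATPC2, which encode the gamma subunit of the ATP synthase, had log2 fold changes of -0.0061, 0.36, 0.030, -0.0084, -0.021 and 0.072. None passed with limma (adjusted p from 0.637 to 0.998). Against 3.31% of all probe sets, 1 of the 6, PSAN, was higher at an unadjusted p under 0.05. Its signals were 2444, 3194 and 3202 in wild type and 3176, 3886 and 4338 in pif1-2, with overlap. PSAE-1 varied more between replicates than between groups, from 2977 to 5670 in pif1-2 and from 3144 to 5624 in wild type.

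Members with dimmer signals had lower fold changes than the brightest ones. The 13 members with a mean signal of at least 10000 had log2 fold changes from -0.28 to 0.13 with a median of -0.068, and 0 of them were lower at an unadjusted p under 0.05. The 20 members below that signal ran from -0.98 to 0.038 with a median of -0.30, and 9 were lower. Across the 33 members the fold change and the log2 mean signal had a Pearson r of 0.48 and a Spearman rho of 0.61, a description over genes that share arrays and transcripts. Over the whole table, 9.94% of the 181 probe sets with a mean of at least 10000 had an unadjusted p under 0.05. For the others the share was 7.65%. Both shares count either direction, while the member counts above are of lower values only, so they are no like background for them. Over all probe sets tested, of any signal, 4.36% were lower at that threshold. The absolute log2 fold change had a median of 0.14 in the 181 and 0.16 in the others. With the sign kept, the median of the 181 was 0.12, and 43 of them were negative. Among the 13 members at that signal 7 were negative. The part of array saturation in the members' pattern was not tested.

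**Figure D5:**
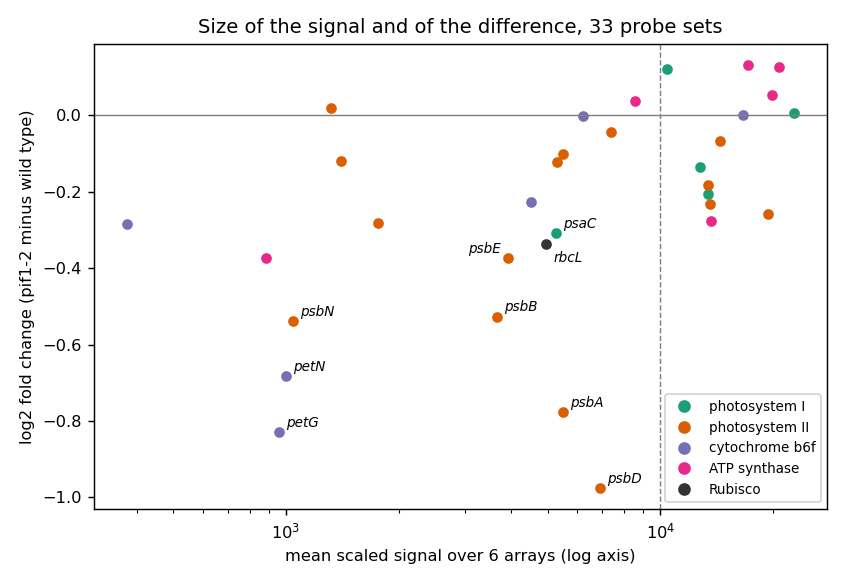
The horizontal log axis gives the mean scaled signal over 6 arrays and the vertical axis the log2 fold change of the 33 members, coloured by complex; named genes have an unadjusted p under 0.05 and the dashed line marks a signal of 10000. All 9 named genes lie left of the line, and the 13 members to its right lie between -0.28 and 0.13.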

How the data were processed

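RNA of 3 wild-type and 3 pif1-2 samples was measured on 6 Affymetrix ATH1 arrays, from 20 µg of total RNA each, per the labels. The deposited values are intensities per probe set that the authors made with MAS5, per the submitters' processing notes; neither its version and settings nor the genome build is stated in those notes or labels. Of 22810 probe sets, 64 Affymetrix controls served only to describe the arrays. The other signals were scaled so that the 2% trimmed mean of every array was 500. A mean under 50 removed 5051 probe sets, and log2(signal + 16), a scale on which differences of dim probe sets come out too small, was fitted for the remaining 17695 with limma 3.58.1 in R 4.3.3 (lmFit, eBayes with an intensity trend), two-sided. The p-values were adjusted by Benjamini-Hochberg across the table, with a threshold of 0.05. The fit was tested on simulated data, in which the changes set were all larger than those of the members. How often it calls changes of the members' size was not tested.

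Gene names came from the platform annotation, which gives 1 gene for 13513 probe sets, several for 503 and none for 8730. All 33 members were found in RefSeq's TAIR10.1 gene table, used for names and gene order only, and all 33 have plain probe set IDs without a suffix for shared probes. The number of arrays sets the precision. The labels call the replicates biological without saying how they were grown, so the p-values cover the spread of these samples only, which may be technical.

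Members and lists were chosen with earlier results of these data known. Signals per array are given for members with an unadjusted p under 0.05 and, in each complex, for the member with the highest fold change and that with the lowest p; psbZ, petA, accD, ycf4, PSAN, PSAE-1 and 2 values of rpoC2 were added after their values were seen. The alternatives changed the pseudocount, floor, scaling, filter or variance model, weighted the arrays, added the replicate number as a block or left out each array in turn.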

Additional observations from a re-analysis of the deposited data

How the results depend on the processing

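In 564 of 594 recomputed fold changes of single members the sign and the side of the threshold stayed the same. Only 3 passed: psbD (adjusted p = 0.0258) and petG (0.0267) in the fit with a replicate block, and psbA (0.0235) without wild type replicate 1. Members called were 0, but 2 with the replicate block and 0 to 1 without 1 array, and over all probe sets the block gave 45 calls in place of 2. Same-numbered arrays deviated from their group means together with correlations of 0.25, 0.099 and 0.088. For arrays with different numbers the correlations were lower, from -0.16 to 0.054. The labels state no shared origin, so the numbers were not taken as pairs in the main fit. Whether same-numbered arrays share an origin was not tested. Calls over all probe sets were 1 with median centring, quantile normalization, no filter or no intensity trend, 8 with array weights and 0 to 7 without 1 array. Members at an unadjusted p under 0.05, all lower in pif1-2, were 4 with no intensity trend and 4 to 12 without 1 array, against 9. The share of all probe sets lower at that threshold was 3.69% with no intensity trend and 2.41% to 5.08% without 1 array, against 4.36%. The median over the members ran from -0.23 to -0.12 without 1 array, and that of photosystem I from -0.19 to -0.00050. The cause of these shifts was not tested. In 10 members the sign turned, 27 times in all. With quantile normalization petB was at -0.11, psaB at -0.15, atpA at -0.043 and atpF at -0.0021, and with median centring petL was at 0.020. With array weights petL, petB, psaB and atpF were at 0.0042, -0.038, -0.0080 and -0.021. Without 1 array petL ran from -0.072 to 0.099, petB from -0.085 to 0.064, psaA from -0.26 to 0.024, psaB from -0.023 to 0.026, psbH from -0.22 to 0.059, psbI from -0.14 to 0.028, psbJ from -0.065 to 0.12, psbK from -0.20 to 0.050, atpA from -0.0081 to 0.11 and atpF from -0.067 to 0.17.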
